A study of Homo sapiens with 24 samples.

Results

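Receptor tyrosine kinases are membrane proteins that bind a growth factor or another ligand outside the cell and carry a tyrosine kinase domain inside it. Binding brings receptors together, the kinase domains phosphorylate each other or their partners, and adaptor proteins that dock on the phosphorylated tyrosines pass the signal to the Ras-MAPK and PI3K pathways. In lung cancer, members such as EGFR, MET, ERBB2, ALK and ROS1 are known as drivers and as drug targets. A list of 53 genes of this family was looked up by symbol among the 60563 named genes of the count table, and all 53 were present. The list holds most families of these receptors but not every human member.

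The libraries were made from H1299 cells, a human non-small cell lung carcinoma line without p53, and from clones of H1299 that carry a shortened p53 isoform. RNA was sequenced in 24 libraries, 4 for each of 6 lines. The control was a vector-only H1299 line, deficient in p53. Plasmids for the isoform Δ133p53α had been put into the clones Δ133p53α1, Δ133p53α2 and Δ133p53α8, and plasmids for the isoform Δ133p53β into the clones Δ133p53β5 and Δ133p53β10, all of them on the same p53-deficient background, and the promoter that drives the isoforms is not given in the sources used here. Each line is 1 clone or 1 vector line, so an effect of an isoform and a difference between clones cannot be told apart. The sources do not say whether the libraries of a line came from separate cultures, and p-values therefore measure only the spread between these libraries.

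The clone of 1 Δ133p53β library was given in conflicting ways, with 3 Δ133p53β5 and 5 Δ133p53β10 libraries in the sample titles and 4 of each in the deposited counts. It was counted as Δ133p53β5 replicate 4. Counted in Δ133p53β10 instead, it left every call of a member in place and added KIT in Δ133p53α8, PTK7 in Δ133p53β5 and EPHA5 in Δ133p53β10. Total counts were from 21531599 to 25381731 per library. The libraries also fell into a positive and a negative set of 12 each, by the sign of the rank correlation between a gene's deviation from its mean and its exon length (from 0.188 to 0.305 in the positive set and from -0.271 to -0.116 in the negative set, across genes). Of 4 libraries a line, the positive set held 3 in Δ133p53α8, Δ133p53α2 and control and 1 in the other lines. Calls of members that were gained with the set as a term of the fit are given beside their values.

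Clones are named below by isoform letter and number (α1, α2, α8, β5 and β10). Expression is given as CPM, the read count relative to a library size scaled by edgeR's TMM method, and group values are the mean ± SD of 4 libraries. Of the 53 members, 25 had a mean of at least 1 CPM in control and 15 had at least 10 CPM in every line. The test covered the 34 members that passed edgeR's filter on low counts, out of 17990 genes that passed it. The other 19 were ERBB4, INSRR, PDGFRA, CSF1R, FLT1, FGFR2, NTRK2, NTRK3, MUSK, MST1R, TEK, EPHA3, EPHA6, EPHA8, EPHB1, EPHB3, ROS1, LTK and ALK, none of which had more than 22 counts in a library. NTRK2, NTRK3 and ALK, receptors for neurotrophins and for the ligands ALKAL1 and ALKAL2, had 0 counts in each of the 24 libraries, which allows up to 3 counts in a library. Another 6 members never had more than 3 counts, which makes 9 members at or under 3 counts throughout.

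**Figure D1:**
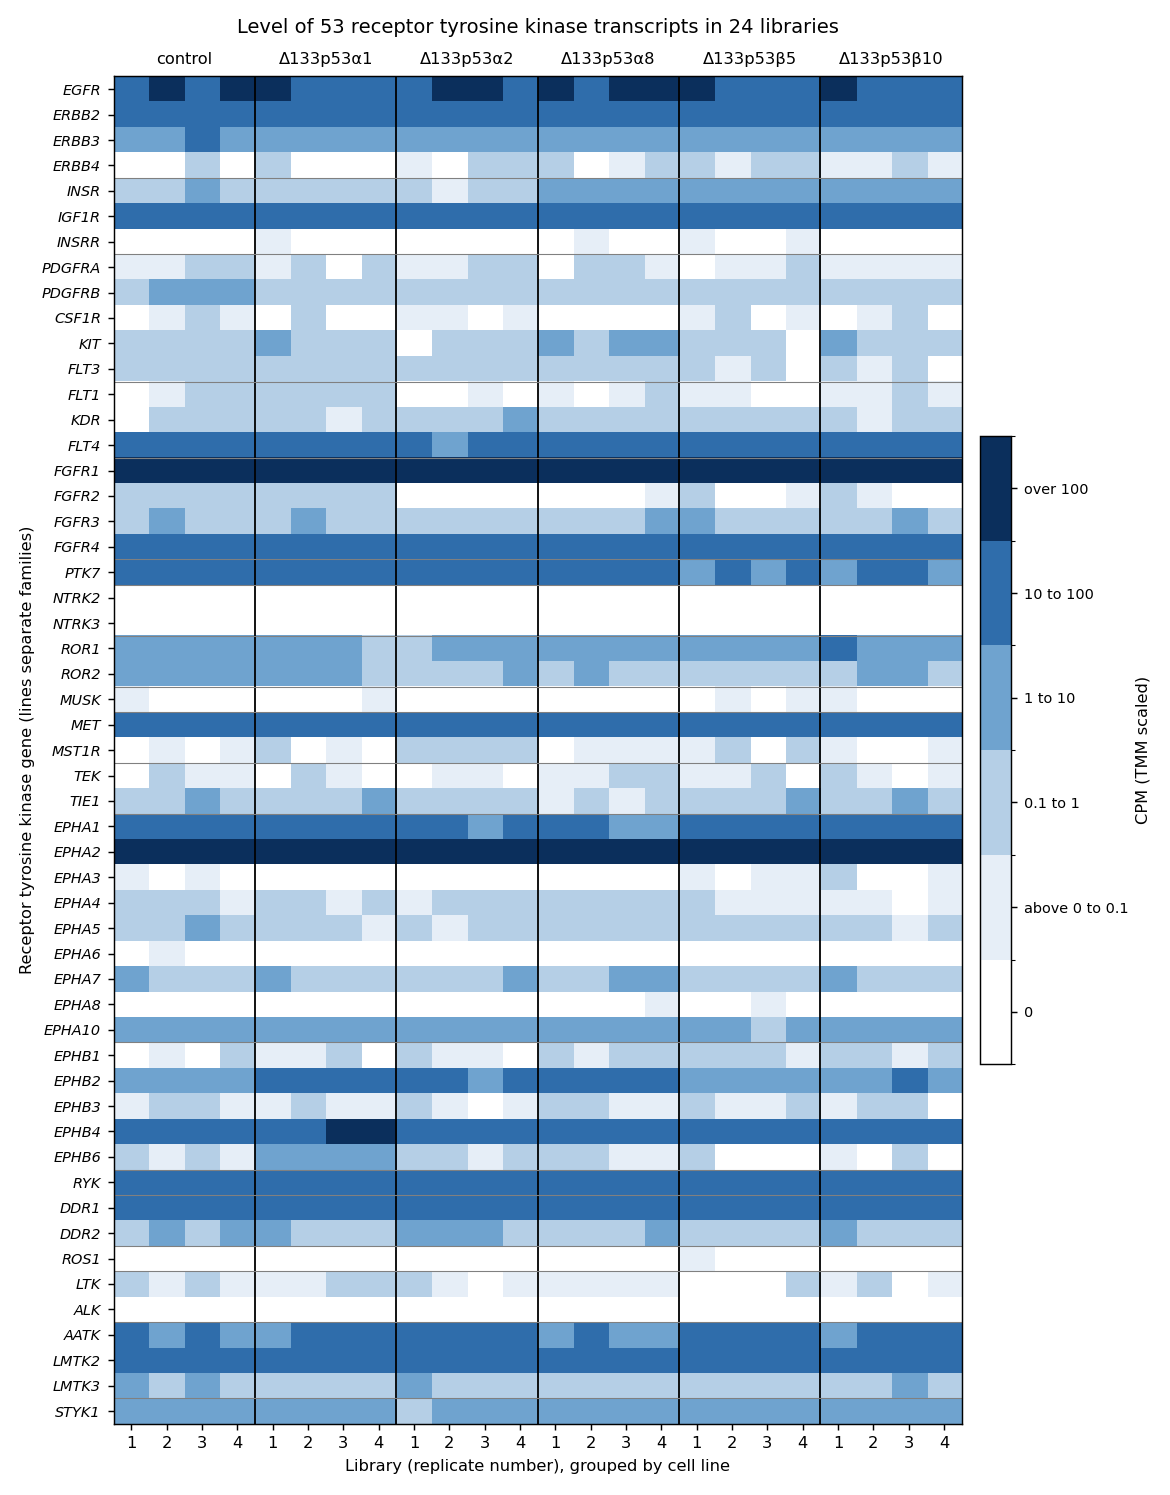
Level of the 53 receptor tyrosine kinase transcripts (rows, grouped by family) in the 24 libraries (columns, grouped by line), as CPM in 6 steps of color. EPHA2 and FGFR1 were over 100 CPM in every library, whereas NTRK2, NTRK3 and ALK were at 0 in every library.

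Levels of different genes were compared as CPM per kilobase of exon, which corrects for length. EPHA2, a receptor for A-type ephrins, was the highest member in every line, with 51.6 CPM per kilobase in control (45.4 to 57.0 over the 4 libraries) and from 40.5 in β5 to 62.0 in α1. EPHB4, the receptor for ephrin-B2, was next in every line, at 11.9 CPM per kilobase in control (11.1 to 12.8) and from 8.99 in β10 to 16.2 in α1. The 2 ephrin receptors did not overlap in any line, but the range of EPHB4 overlapped those of FGFR1, RYK and MET in α8, β5 and β10. It also overlapped that of EGFR in α8 and those of EPHA1, FGFR4 and EGFR in β10. FGFR1, an FGF receptor, came next in control with 9.29 CPM per kilobase (7.64 to 11.1), followed by MET with 7.82 (5.59 to 9.11), RYK, a Wnt co-receptor, with 7.38 (6.68 to 8.52), EGFR with 5.90 (2.82 to 8.12) and the collagen receptor DDR1 with 5.34 (4.30 to 6.65). Each of these overlapped the next in its control range, so that no neighbouring pair from FGFR1 to DDR1 differed beyond its spread, whereas FGFR1 and DDR1 themselves did not overlap. In α2, MET (7.97), RYK (7.69) and FGFR1 (7.59) followed EPHB4, with overlapping ranges.

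The first comparison set each clone against control and members with a log2 difference of 1.5 or more, up or down, and an adjusted p below 0.05 were called. The members called in any clone were 5, of which INSR and EPHB6 were higher and ERBB3, ROR2 and PDGFRB were lower. In α1, 1 member was higher and 3 were lower, where 1.05% and 1.41% of all tested genes were called higher and lower. In α2, none was higher and 2 were lower (0.967% and 1.67% of all tested genes). In α8, 1 was higher and 1 was lower (0.967% and 1.41%). In β5, 1 was higher and 2 were lower (1.38% and 2.94%), and in β10, 1 was higher and 3 were lower (1.9% and 2.71%).

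As a share of the 34 tested members, the calls of both directions together made up 11.8% in α1 and β10, 8.82% in β5 and 5.88% in α2 and α8. In a joint test of any difference among the 6 lines, 5 members were called (EPHB6, INSR, ROR2, PDGFRB and ERBB3), or 14.7% of those tested beside 6.05% of all genes. At an adjusted p under 0.05 alone these were 9 members, or 26.5%, beside 10.1% of all genes. Those added were FLT4, EPHA2, EPHB2 and DDR1. The 5 comparisons with control share its 4 libraries. The median log2 fold change over the tested members was 0.01 in α1, -0.28 in α2, -0.12 in α8, -0.42 in β5 and -0.35 in β10, and over all tested genes it lay between -0.05 and 0.03. Over the 15 members with at least 10 CPM in every line, the medians ran from -0.27 to -0.04.

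**Figure D2:**
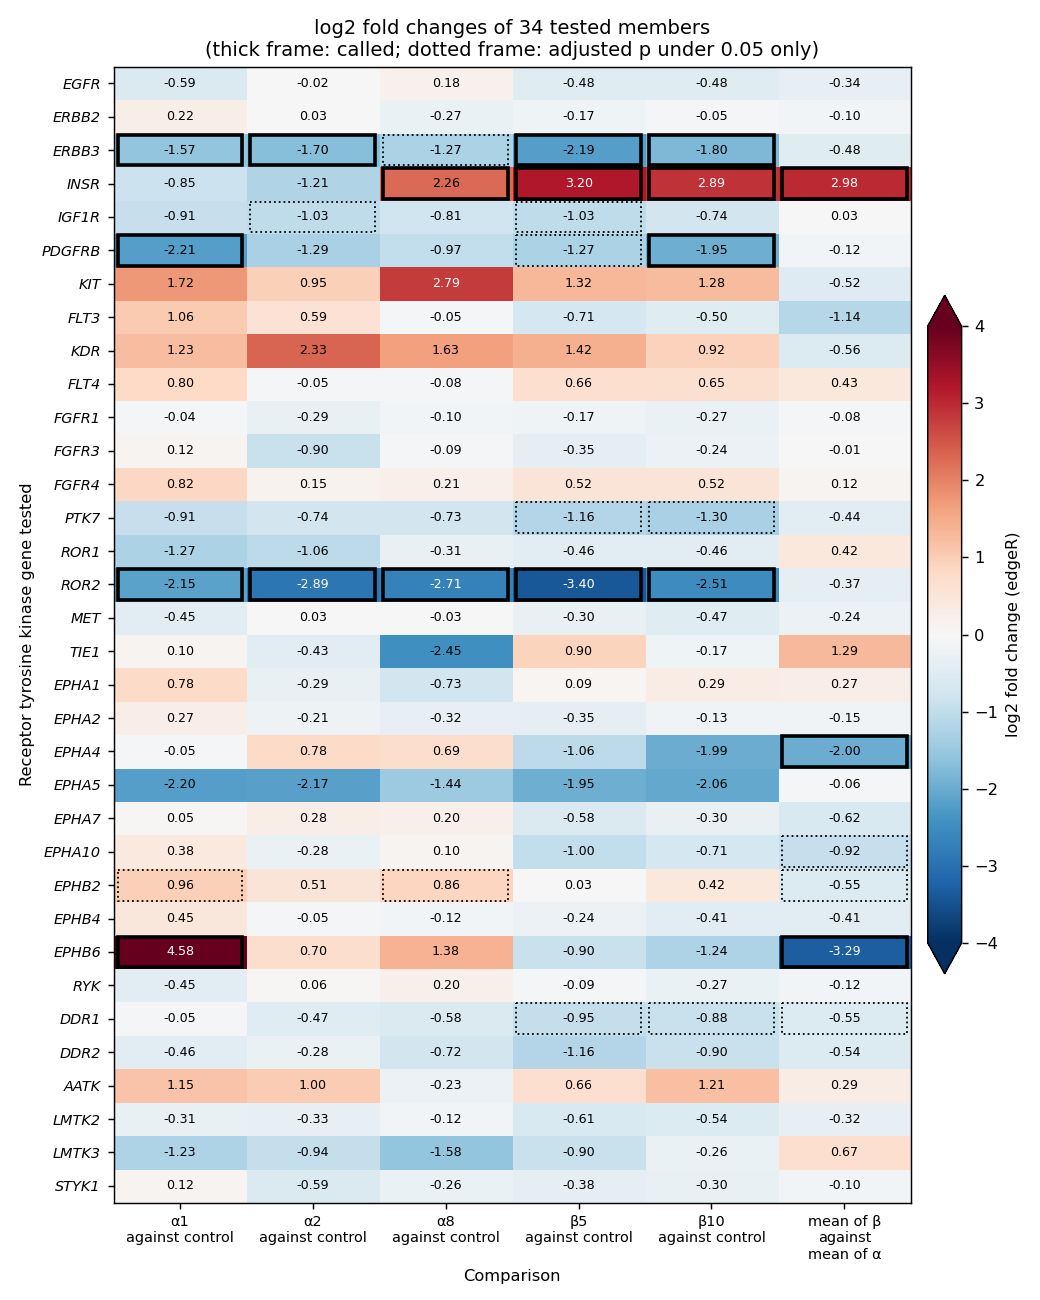
log2 fold change of each of the 34 tested members (rows) in the clones against control and in the mean of the Δ133p53β against the mean of the Δ133p53α clones (columns), from edgeR. Thick frames mark called members and dotted frames mark an adjusted p under 0.05 without the fold change. ROR2 was called in all 5 clones, ERBB3 in 4, INSR in 3, PDGFRB in 2 and EPHB6 in 1.

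INSR encodes the insulin receptor and lies on the minus strand of chromosome 19 from 7112255 to 7294414 (ENSG00000171105, GRCh38). It was 0.384, 0.468, 1.05 and 0.381 CPM in control replicates 1 to 4. In the Δ133p53α clones it was 0.537, 0.152, 0.223 and 0.327 CPM in α1, 0.286, 0.0859, 0.205 and 0.404 CPM in α2, and 2.51, 2.18, 3.12 and 3.25 CPM in α8. In the Δ133p53β clones it was 7.25, 4.77, 3.71 and 5.60 CPM in β5 and 4.85, 4.50, 3.79 and 4.07 CPM in β10. All 12 libraries of α8, β5 and β10 were above every control library, and the libraries of α1 and α2 overlapped control.

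INSR rose 4.78-fold in α8 (log2 fold change 2.26 with a standard error of 0.378, adjusted p = 0.000618 by the quasi-likelihood test of edgeR), 9.21-fold in β5 (3.20, standard error 0.386, adjusted p = 8.8e-06) and 7.43-fold in β10 (2.89, standard error 0.383, adjusted p = 3.05e-05). In α1 and α2 the log2 fold changes were -0.85 and -1.21, with adjusted p of 0.2 and 0.118 from edgeR. With the library set as a term, the value of α2 passed 0.05 (-1.21, adjusted p = 0.044 from edgeR) without reaching the fold change. INSR was therefore high in some clones and at or under the control level in others, and within the Δ133p53α isoform α8 stood apart from both other clones. Control counts were low, from 9 to 28 per library.

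IGF1R, the receptor for insulin-like growth factors and the nearest relative of INSR, was 35.5 CPM ± 9.50 in control. It was from 17.4 to 21.3 CPM in the clones, and its log2 fold change was negative in all 5, from -1.03 to -0.74. It passed an adjusted p of 0.05 in α2 (0.0493) and β5 (0.0312, both from edgeR) but the fold change threshold in neither. With the library set as a term IGF1R passed 0.05 in α2 (-1.01, adjusted p = 7.25e-05 from edgeR), α8 (-0.79, 0.00121) and β5 (-0.62, 0.00989). It also did so among the 6 lines (range 1.01, adjusted p = 0.00042 from edgeR), again without a call. INSRR, the remaining member of the family, had at most 2 counts in a library.

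ROR2, a receptor for Wnt5a, lies on the minus strand of chromosome 9 from 91563091 to 91950228 (ENSG00000169071). It was 4.22, 6.72, 5.63 and 6.26 CPM in control replicates 1 to 4. The Δ133p53α clones had 1.57, 1.37, 1.40 and 0.762 CPM in α1, 0.743, 0.730, 0.534 and 1.05 CPM in α2, and 0.934, 1.07, 0.802 and 0.667 CPM in α8. The Δ133p53β clones had 0.725, 0.682, 0.366 and 0.359 CPM in β5 and 0.870, 1.31, 1.74 and 0.125 CPM in β10. All 20 clone libraries were below all 4 control libraries.

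ROR2 was the only member called in each of the 5 clones. It fell 4.45-fold in α1 (log2 fold change -2.15), 7.41-fold in α2 (-2.89), 6.55-fold in α8 (-2.71), 10.6-fold in β5 (-3.40) and 5.69-fold in β10 (-2.51), with standard errors from 0.436 to 0.467 and adjusted p from 4.35e-05 to 0.00419 from edgeR. The clones were not told apart for ROR2, with an adjusted p of 0.417 in the test of any difference among the 5. ROR1, its paralog, had 6.68 CPM ± 2.40 in control and from 2.75 to 5.37 CPM in the clones. Its log2 fold changes ran from -1.27 to -0.31 and none passed 0.05 (lowest adjusted p = 0.241 from edgeR). With the library set as a term, ROR1 passed 0.05 in α2 (-1.28, adjusted p = 0.0278 from edgeR) and between the isoforms (1.12, Δ133p53β minus Δ133p53α, adjusted p = 0.00622), and it was called among the 6 lines and among the 5 clones (range 1.66, adjusted p = 0.0288 and 0.0429).

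For INSR and ROR2, the members called in most clones with an entry among the RefSeq promoters of GRCh38.p14, the 250 bases before the start of the gene are shown, to show how rich in G and C both starts are. Of the 53 members 47 had an entry, and ERBB3 had none. Capitals mark GGGCGG, the GC box, searched on both strands (CCGCCC on the strand shown), with overlapping matches counted. The sequences run 5′ to 3′ on the minus strand, INSR at chr19:7294415-7294664 and ROR2 at chr9:91950229-91950478.
INSR: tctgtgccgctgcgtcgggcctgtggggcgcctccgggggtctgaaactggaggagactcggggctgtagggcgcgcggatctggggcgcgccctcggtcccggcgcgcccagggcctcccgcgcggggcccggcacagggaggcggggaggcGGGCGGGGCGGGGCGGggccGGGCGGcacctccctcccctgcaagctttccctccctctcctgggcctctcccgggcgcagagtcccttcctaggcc
ROR2: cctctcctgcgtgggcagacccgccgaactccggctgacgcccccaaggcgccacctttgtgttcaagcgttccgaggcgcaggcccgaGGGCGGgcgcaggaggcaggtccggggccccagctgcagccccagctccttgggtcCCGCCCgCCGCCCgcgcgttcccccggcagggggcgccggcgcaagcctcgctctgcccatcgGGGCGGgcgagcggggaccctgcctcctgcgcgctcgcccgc

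Both held 4 GC boxes, in 78.4% and 78.0% G or C with 28 and 32 CpG, beside a median of 58.0% and 11 CpG over the 35116 promoters of the table. A GC box was found in 42.6% of all promoters and in 34 of the 47 of the members, and the letters TATAAA in 10.7% of all and in 3 of the members, none of them INSR or ROR2. The letters are a description of these windows and not of binding.

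ERBB3, the EGF receptor family member that binds neuregulins and has little kinase activity of its own, lies on chromosome 12 from 56076799 to 56103505 (ENSG00000065361). It was 5.49, 8.38, 18.3 and 5.08 CPM in control. The Δ133p53α clones had 4.01, 1.98, 2.62 and 3.92 CPM in α1, 3.26, 2.19, 3.29 and 2.75 CPM in α2, and 2.51, 3.76, 4.47 and 4.71 CPM in α8. The Δ133p53β clones had 1.45, 2.23, 1.65 and 2.82 CPM in β5 and 1.78, 2.57, 2.95 and 3.40 CPM in β10. All 20 clone libraries were again below the 4 control libraries, although control replicate 3 was far above the other 3 controls and the highest α8 library came close to the lowest control.

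ERBB3 fell 2.97-fold in α1 (log2 fold change -1.57, standard error 0.363, adjusted p = 0.0124 from edgeR), 3.25-fold in α2 (-1.70), 4.58-fold in β5 (-2.19) and 3.48-fold in β10 (-1.80). In α8 it passed the p-value but not the fold change threshold (-1.27, adjusted p = 0.0446 from edgeR). Control replicate 3 carried part of this difference. Without it the log2 fold changes were -1.01 in α1, -1.14 in α2 and -1.24 in β10, all short of the threshold, and ERBB3 stayed called in β5, where the lowest of the leave-one-out values was a fall of 1.63. Pairwise fits of 1 clone and control alone also lost the call in α1, α2 and β10. ERBB3 shares 31 exon bases with another gene model on the same strand, whose reads cannot be told apart from its own there.

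In the same family, EGFR was 94 CPM ± 36.2 and ERBB2, the preferred partner of the other members, 37.2 CPM ± 7.31 in control, and ERBB4 was not tested, with 3 control counts in all. ERBB2 lay between 30.8 and 43.5 CPM in the clones and its log2 fold changes between -0.27 and 0.22 (lowest adjusted p = 0.58 from edgeR). The ERBB2 exons overlap those of PGAP3 and MIEN1 on the other strand. The sources do not give the strand setting of the counting.

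PDGFRB, a receptor for platelet-derived growth factor, lies on the minus strand of chromosome 5 from 150113839 to 150155872 (ENSG00000113721). It was 0.499, 1.06, 1.77 and 1.06 CPM in control. It was 0.330, 0.203, 0.223 and 0.163 CPM in α1, 0.686, 0.258, 0.370 and 0.485 CPM in α2, and 0.637, 0.418, 0.633 and 0.542 CPM in α8. It was 0.555, 0.273, 0.412 and 0.565 CPM in β5 and 0.290, 0.339, 0.105 and 0.374 CPM in β10. Every library of α1 and β10 was below every control library, and the other 3 clones overlapped control through its replicate 1.

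PDGFRB fell 4.62-fold in α1 (log2 fold change -2.21, standard error 0.421, adjusted p = 0.00242 from edgeR) and 3.86-fold in β10 (-1.95, standard error 0.408, adjusted p = 0.00336). The values in the other clones were -1.29 in α2 (adjusted p = 0.0583), -0.97 in α8 (0.199) and -1.27 in β5 (0.0415, all from edgeR). A difference among the 5 clones was not found for PDGFRB (adjusted p = 0.288 from edgeR), so that its calls in 2 clones do not set these apart from the others. The pairwise fit did not call it in β10 (adjusted p = 0.0708).

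EPHB6, an ephrin receptor whose kinase domain is inactive, lies on chromosome 7 from 142855061 to 142871094 (ENSG00000106123). It was 0.154, 0.0425, 0.113 and 0.0423 CPM in control, from 1 to 4 counts. α1 had 1.65, 2.64, 3.18 and 1.58 CPM, α2 had 0.286, 0.129, 0.0821 and 0.121 CPM, and α8 had 0.340, 0.510, 0.0422 and 0.0833 CPM. β5 had 0.171 CPM in replicate 1 and 0 counts in the others, and β10 had 0.0414, 0, 0.105 and 0 CPM. The 4 libraries of α1 were above all 20 libraries of the other lines.

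Over the libraries of a line, α1 held 178 EPHB6 counts and control 9, a ratio per library size of 24.6 (exact Poisson 95% interval 12.7 to 54.7, which covers counting error only). On the log2 scale it rose by 4.58 (standard error 0.737, adjusted p = 0.000491 from edgeR), and it was 4.27 with the library set as a term. No other clone passed 0.05 against control (lowest adjusted p of the other 4 = 0.447). With 3 counts in β10 the ratio of α1 to it was 65.0 (21.9 to 318), so its size was poorly fixed. At a mean filter of 1 CPM EPHB6 was not tested.

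The next question was which members differed between the isoforms. With the 2 Δ133p53β clones averaged and set against the average of the 3 Δ133p53α clones, 1 member was called higher (0.606% of all tested genes) and 2 were called lower (0.717%). INSR was higher in Δ133p53β (log2 fold change 2.98, standard error 0.24, adjusted p = 3.65e-08 from edgeR), and none of its 8 Δ133p53β libraries (3.71 to 7.25 CPM) overlapped the 12 Δ133p53α libraries (0.0859 to 3.25 CPM). EPHB6 was lower (-3.29, standard error 0.616, adjusted p = 0.00177 from edgeR), with overlap of the libraries. EPHB6 rested on α1, since the α2 and α8 means were 0.155 and 0.244 CPM beside 0.0427 and 0.0367 CPM in β5 and β10.

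EPHA4, an ephrin receptor that binds A- and B-type ephrins (minus strand of chromosome 2 from 221418027 to 221574202), was the other member called lower. It was 0.413, 0.152, 0.0558 and 0.109 CPM in α1, 0.0572, 0.258, 0.411 and 0.606 CPM in α2, and 0.425, 0.186, 0.338 and 0.333 CPM in α8. In β5 it was 0.128, 0.0909, 0.0915 and 0.0513 CPM, in β10 0.0414, 0.0968, 0 and 0.0415 CPM, and in control 0.192, 0.128, 0.376 and 0.0846 CPM. The isoforms overlapped in 3 low Δ133p53α libraries and no library held more than 15 counts. On the log2 scale EPHA4 differed by -2 (Δ133p53β minus Δ133p53α, standard error 0.472, adjusted p = 0.0117 from edgeR). With the library set as a term the difference was -1.61. It shares 353 exon bases with an antisense gene model, and without a stated strand setting the reads of the pair cannot be told apart.

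With 3 against 2 clones, an exact permutation test over clones cannot go below p = 0.1, and no test over clone means was run. In the joint test of any difference among the 5 clones, only EPHB6 and INSR were called, 5.88% of the tested members beside 2.37% of all genes. At an adjusted p under 0.05 alone they remained the only ones, beside 3.76% of all genes. With the library set as a term, ROR1 was called as well, and EPHA2 (adjusted p = 0.0349), EPHA10 (0.017), EPHB2 (0.0331), EPHB4 (0.00468) and DDR1 (0.0268) passed 0.05 in edgeR without reaching a range of 1.5. The mean INSR level of α8 (2.76 CPM ± 0.507) lay nearer to β10 (4.30 ± 0.467) than to α1 (0.310 ± 0.167) or α2 (0.245 ± 0.134).

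Some members passed an adjusted p of 0.05 without reaching the fold change. PTK7, a pseudokinase of Wnt and planar polarity signaling, was 27.2 CPM ± 5.79 in control and from 11.1 to 16.4 CPM in the clones. Its log2 fold change was -1.16 in β5 (adjusted p = 0.0237) and -1.30 in β10 (0.0123, both from edgeR), and with the library set as a term it was called in β10 (-1.55) and among the 6 lines. DDR1 was 48.7 CPM ± 9.67 in control, 46.9 ± 11.6 in α1, 35.1 ± 5.61 in α2, 32.5 ± 8.17 in α8, 25.1 ± 7.63 in β5 and 26.5 ± 3.92 in β10 (-0.95 and -0.88, adjusted p = 0.00989 and 0.0176 from edgeR). DDR1 was also lower in Δ133p53β than in Δ133p53α (-0.55, adjusted p = 0.0336). EPHB2 went the other way in 2 Δ133p53α clones, from 8.00 CPM ± 1.37 in control to 15.6 ± 4.26 in α1 and 14.6 ± 1.06 in α8 (0.96 and 0.86, adjusted p = 0.0191 and 0.0377 from edgeR). EPHB2 and EPHA10 were lower in Δ133p53β than in Δ133p53α (log2 fold changes -0.55 and -0.92, adjusted p = 0.0354 and 0.022 from edgeR).

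Several receptors of low level had large but uncertain values. KIT, the stem cell factor receptor, was 0.191 CPM ± 0.0857 in control and 1.35 ± 0.481 in α8, where all 4 libraries were above control. Its log2 fold change there was 2.79 (standard error 0.806, adjusted p = 0.0502 from edgeR), just outside the threshold, and it became a call with the library set as a term (2.82, adjusted p = 0.00203 from edgeR), without the filter on low counts, in the pairwise fit and in DESeq2. The set term also made KIT a call in α1 (2.32, adjusted p = 0.0251 from edgeR), in β5 (2.16, adjusted p = 0.0257) and among the 6 lines. KDR, a VEGF receptor, was 0.134 CPM ± 0.101 in control and 0.677 ± 0.359 in α2 (2.33, adjusted p = 0.0647 from edgeR), and it too was called there with the library set as a term (adjusted p = 0.00455), as well as in α8 (1.76, adjusted p = 0.0443), in β5 (2.18, adjusted p = 0.0138) and among the 6 lines. EPHA5 had log2 fold changes from -2.20 to -1.44 (lowest adjusted p = 0.0814 from edgeR), and it was called in α2 with the library set as a term (-2.21, adjusted p = 0.0242) and in α1 and β10 by DESeq2. LMTK3, a lemur family kinase, had values from -1.58 to -0.26 and was called with the set term in α1 (-1.78, adjusted p = 0.0438 from edgeR) and α8 (-1.63, adjusted p = 0.036). The control libraries of EPHA5 ran from 0.719 to 3.61 CPM, with the highest in the same control replicate 3 that was high in ERBB3.

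The other receptors with the highest levels were not called in any comparison. EPHA2 was 214 CPM ± 22.9 in control, 257 ± 22.5 in α1, 185 ± 18.1 in α2, 171 ± 35.2 in α8, 168 ± 12.9 in β5 and 195 ± 16.6 in β10. In the joint test of the 6 lines EPHA2 passed 0.05 (adjusted p = 0.0474 from edgeR) with a range of 0.61. Its log2 fold changes against control were from -0.35 to 0.27, with standard errors of 0.153. Those of FGFR1, which was 160 CPM ± 27.4 in control and from 130 to 155 in the clones, were from -0.29 to -0.04 with standard errors of 0.143. EPHB4 (76.7 CPM ± 5.74 in control, 57.9 to 104 in the clones) ranged from -0.41 to 0.45, and with the library set as a term it passed 0.05 in β10 (-0.59, adjusted p = 0.0153 from edgeR). RYK (60.2 CPM ± 6.97 in control, 44.1 to 69.4 in the clones) ranged from -0.45 to 0.20. In the widest 95% interval against control, EPHA2 changed by no more than -0.67 and FGFR1 by no more than -0.593 on the log2 scale, whereas for RYK a fall of 1.15 was still within the interval in α1.

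EGFR, the receptor for EGF (chromosome 7 from 55019017 to 55211628), and MET, the receptor for hepatocyte growth factor (chromosome 7 from 116672196 to 116798377), are given in full. The study also examined both proteins at the cell surface and measured both transcripts by qPCR. Apart from EGFR, it reported, transcript levels did not account for the rise in surface protein. EGFR was 45.0, 129, 91.1 and 111 CPM in control. It was 139, 45.4, 35.8 and 30.1 CPM in α1, 37.4, 119, 129 and 85.0 CPM in α2, and 127, 45.1, 110 and 142 CPM in α8. It was 101, 65.0, 60.1 and 43.1 CPM in β5 and 133, 44.9, 28.2 and 62.6 CPM in β10. Every line held at least 1 library above 100 CPM and at least 1 below 50 CPM, with 1 high library in α1, β5 and β10, and every clone overlapped control.

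MET was 40.3, 65.8, 63.6 and 56.2 CPM in control. It was 78.6, 30.4, 27.1 and 29.5 CPM in α1, 26.4, 63.8, 72.0 and 68.2 CPM in α2, and 62.6, 37.0, 56.7 and 65.5 CPM in α8. It was 67.4, 37.0, 47.2 and 31.5 CPM in β5 and 75.7, 27.5, 22.9 and 37.3 CPM in β10. As for EGFR, the range from the lowest to the highest library of each line was wider than the distance between the lowest and highest line means.

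Neither was called in any comparison. The log2 fold changes of EGFR were from -0.59 to 0.18 (standard errors from 0.516 to 0.518, lowest adjusted p = 0.44 from edgeR) and those of MET from -0.47 to 0.03 (0.391 to 0.392, lowest adjusted p = 0.439). EGFR was at -0.48 in β5 and in β10, so a rise of its transcript was not seen there. The 95% interval for EGFR in β5 was -1.57 to 0.603. A fall of more than 2-fold and a rise of up to 0.603 on the log2 scale still lay within it. EGFR and MET moved with the library sets. EGFR was from 101 to 139 CPM on average in the positive and from 37.1 to 56.1 CPM in the negative libraries of the 6 lines, and MET from 61.6 to 78.6 and from 26.4 to 40.3 CPM. The set term was 1.46 for EGFR and 1.05 for MET (log2, positive over negative). With the set in the fit, the values of EGFR were from -0.06 to 0.31 and those of MET from -0.06 to 0.19.

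The surface panel also held VEGFR1, the product of FLT1. What the panel calls ALK was assayed as ALK1, the product of ACVRL1, which is another gene and no member. FLT1 had 0, 2, 3 and 5 counts in control, 4, 3, 2 and 2 in α1, 0, 0, 1 and 0 in α2, 1, 0, 2 and 3 in α8, 1, 1, 0 and 0 in β5 and 2, 2, 2 and 1 in β10. With no more than 5 counts in a library, no difference of FLT1 was detectable at this depth. The receptor tyrosine kinase ALK had 0 counts in all 24 libraries. Of the VEGF receptors only FLT4, the receptor for VEGFC and VEGFD, was well above 1 CPM. It was 13.4 CPM ± 1.5 in control and from 12.6 to 23.3 in the clones (lowest adjusted p against control = 0.0874 from edgeR). In the joint test of the 6 lines it passed 0.05 (adjusted p = 0.045 from edgeR) with a range of 0.88, short of a call.

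**Figure D3:**
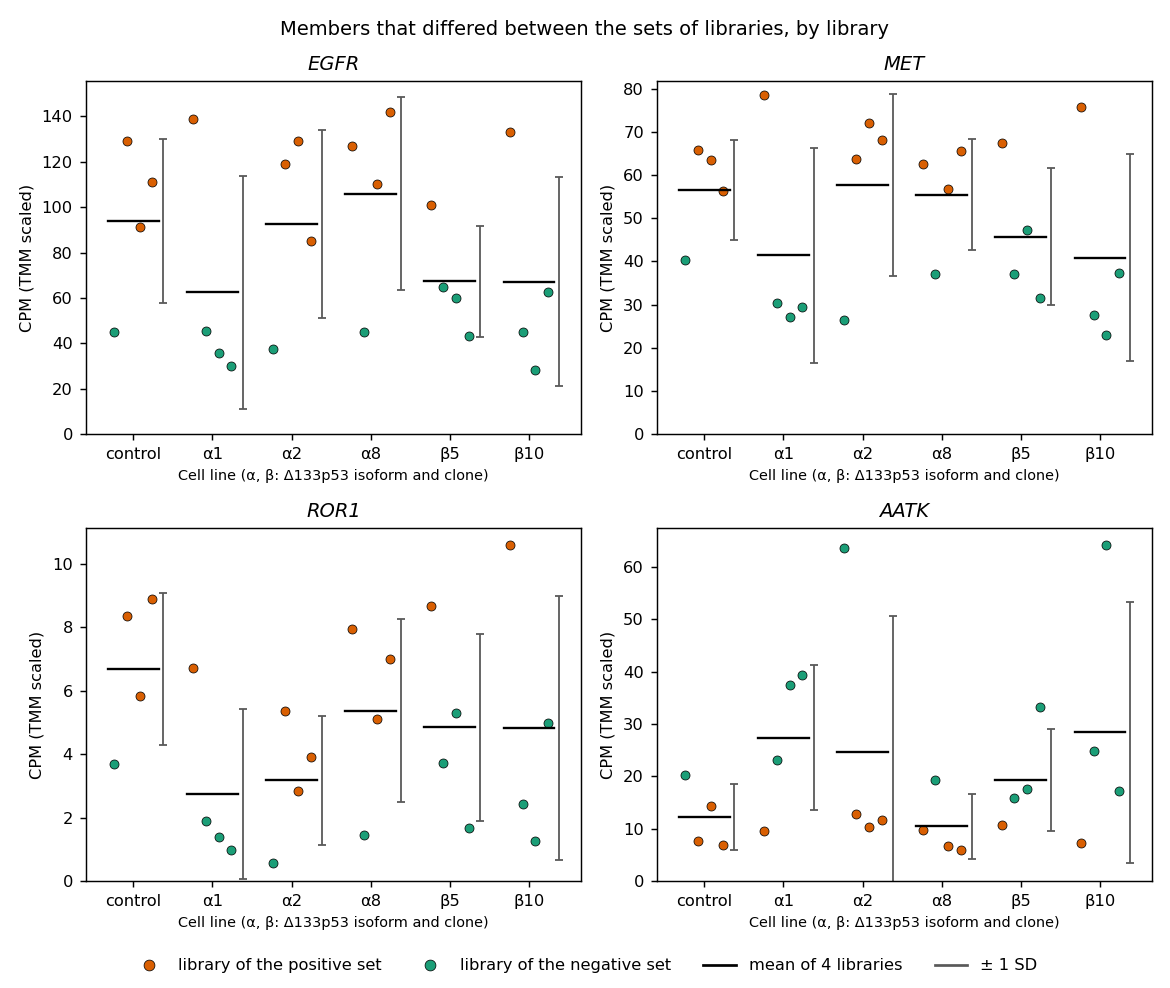
CPM of EGFR, MET, ROR1 and AATK (one panel each, axis from 0) in the 24 libraries, by line. Points are libraries colored by set, black lines are means of 4 libraries and gray bars ± 1 SD, of which the lower end is not drawn below 0. In every line the positive libraries were above the negative ones for EGFR and MET and below them for AATK.

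Other members moved with the library sets as well. Of the 34 tested members, 20 were higher and 14 lower in the positive set, with a median set term of 0.21 beside 0 over all tested genes. ROR1 (1.82), KIT (1.56), EGFR (1.46), KDR (1.41), LMTK2 (1.25), EPHA5 (1.14), EPHA4 (1.08), MET (1.05) and DDR2 (1.04) had the largest positive terms. AATK (-1.68), a kinase of the lemur family, and EPHA1 (-1.12) had the lowest. AATK was from 5.92 to 14.3 CPM in the positive and from 15.9 to 64.2 CPM in the negative libraries. It shares 1737 exon bases with BAIAP2 on the other strand, and without a stated strand setting their reads cannot be told apart there. Among the called members the terms were 1.08 for EPHA4, 0.51 for INSR, 0.38 for PDGFRB, 0.18 for ROR2, 0.01 for ERBB3 and -0.66 for EPHB6. What the sets stand for was not tested.

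Among the 19 untested members, FGFR2 and MST1R had the clearest counts. FGFR2 had 7, 13, 22 and 9 counts in control, 14 over the 4 libraries of α1, 0 in every library of α2, 2 in α8, 6 in β5 and 7 in β10. Against 3 counts per library, FGFR2 was at least 3.72-fold lower in α2 than in control. MST1R, the receptor for macrophage-stimulating protein, had 7, 6, 15 and 16 counts in α2 and 3 counts in the 4 control libraries, a ratio of 16.3 (exact Poisson 95% interval 5.22 to 82.0, counting error only). Both were called in α2 once the filter on low counts was dropped.

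The genes around the receptors were followed by list, with the same test. Of 56 ligands, 36 were tested, and from 1 to 2 were called higher and from 1 to 3 lower in a clone. Beside this and the following lists, from 0.967% to 1.9% of all tested genes were called higher in a clone and from 1.41% to 2.94% lower. FGF1, a ligand of all FGF receptors, rose in all 5 clones, from 5.40 CPM ± 2.78 in control to between 17.5 in α1 and 37.5 in β5 (log2 fold changes from 1.69 to 2.80, largest adjusted p = 0.00438 from edgeR). FGF5 fell in 4 clones, from 62.5 CPM ± 13.6 in control to between 17.2 and 20.8 (from -1.86 to -1.58), and was 27.5 in α1 (-1.18). PTN, a ligand of the phosphatase PTPRZ1 that has also been linked to ALK, fell in 4 clones. It was 3.12 CPM ± 1.63 in control, 0.323 in α1, 0.982 in β5 and 0.758 in β10, and with 0 counts in all 4 libraries of α2 it was at least 22.9-fold lower there. EFNB3, a B-type ephrin, fell in α2, β5 and β10 (from -2.15 to -1.91).

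Of 30 adaptors and effectors 25 were tested, and the only call was PLCG2, a phospholipase C, higher in α2 (1.52, adjusted p = 0.000955 from edgeR). Their median log2 fold change was -0.55 in α1, -0.11 in α2, -0.07 in α8, -0.38 in β5 and -0.55 in β10. α2 and α8 have as many libraries of the positive set as control, and α1, β5 and β10 have fewer. The lists were not refitted with the library set as a term, so whether these medians follow the sets was not tested. Of 23 negative regulators 21 were tested, 1 was lower in every clone and 1 was higher in α1. The lower one was ERRFI1 (MIG6), which binds and inhibits EGF receptors. ERRFI1 was 396 CPM ± 162 in control and 64.6 ± 26.5, 80.6 ± 28.8, 54.8 ± 5.40, 54.6 ± 17.8 and 46 ± 28.6 in α1, α2, α8, β5 and β10, with log2 fold changes from -3.10 to -2.30 (largest adjusted p = 0.000555 from edgeR). The higher one was DUSP4, a MAPK phosphatase, in α1 (2.19). All 10 genes known as outputs of MAPK signaling were tested, and EGR1 alone was called, lower in β5 and β10 (-2.14 and -2.23, adjusted p = 0.00859 and 0.00681 from edgeR). EGR1 varied widely in control, at 10.8 CPM ± 7.96. FOSL1 in α1 and CCND1 in β10 were higher without reaching the fold change (1.40 and 0.82, adjusted p = 0.023 and 0.0202 from edgeR). The median of the 10 was 0.17, 0.47 and 0.23 in α1, α2 and α8 and -0.23 and -0.27 in β5 and β10.

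Markers of the cells were counted as a check of the label. Of 8 lung epithelial and carcinoma markers, KRT8 (567 CPM ± 125 in control) and KRT18 were abundant, whereas CDH1, EPCAM, KRT19 and SFTPB had at most 5 counts in a library and NKX2-1 at most 14. KRT8 was higher in all 5 clones (log2 fold changes from 1.55 to 2.43). Of 5 mesenchymal markers VIM was highest, at 3690 CPM in control, and FN1 was lower in β5 and β10 (-1.65 in both). The summed level of 6 haematopoietic markers was from 2.46 to 13.0 CPM, led by ITGAM, which was lower in α2, β5 and β10 (from -1.86 to -1.68). PTPRC and CD3E were at 0 in every library. The 5 endothelial markers summed to 0.171 to 1.47 CPM and the 6 fibroblast markers to 0.296 to 2.34 CPM, of which 0 and 1 were tested, so that calls were hardly possible.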

How the data were processed

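The 24 H1299 libraries are strand-specific and were made from poly(A) RNA. According to the study's methods, the authors removed adapters (Cutadapt), mapped reads to the GRCh38 genome (HISAT2) and assigned them to Ensembl genes by exon (featureCounts). How strand and multiply mapped reads were handled there is not given in the sources used here. They deposited whole-number read counts per gene symbol and library, without normalization. 1 entry without a name, with 0 reads, was left out. The library whose titles and columns disagree was counted in Δ133p53β5.

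Counts were tested in R 4.3.3 with edgeR 4.0.16 (TMM, filterByExpr by line, 1 quasi-likelihood fit of 6 lines with 18 residual degrees of freedom, Benjamini-Hochberg adjustment over all 17990 tested genes per comparison). The tested genes held at least 99.87% of each library's counts. The thresholds, a p of 0.05 and a log2 fold change of 1.5, are those of the study. Joint tests used the range of the fitted line means in place of the fold change. CPM per kilobase used the length of all exons of a gene together in GENCODE 44, which gave a length for 98.6% of tested genes. Alternatives tried were a mean filter of 1 CPM, no filter, RLE size factors, DESeq2 1.42.0, limma 3.58.1 (voom), pairwise fits, the replicate block, the library set as a term, a fold change of 1.5, the other placement of the library in question and leaving out each library. The procedure was tested on simulated data. Reads carry no molecular identifiers, so intervals and limits from counts cover counting error only. No 2 libraries of a line repeat each other (lowest chi-square per degree of freedom 17.2).

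The members and the gene lists were chosen with earlier results of these data known. All 53 members are accounted for, and values in every library are given for members called in at least 1 comparison and for EGFR, MET, FLT1 and ALK. The 5 of the remaining members with the highest level per length in control are given by line or by their range over the clones. Of the other lists, genes called in at least 3 clones are named, or the 2 with the largest called change where there are fewer. FGFR2, MST1R, KIT, KDR, EPHA5, FLT4, ROR1, IGF1R, AATK and other members named beyond this were chosen after their values were seen. The transgene's transcript is not reported here.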

Additional observations from a re-analysis of the deposited data

Results flagged for a closer look

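In groups of 4 libraries, a library was taken as apart when its gap to the nearest other library exceeded Dixon's 95% critical value. This was asked of 90 groups, and chance marks about 1 in 20. EGFR was 139 CPM in α1 replicate 1 and from 30.1 to 45.4 in the other 3 libraries, and MET was 78.6 CPM there beside 27.1 to 30.4. This library is the only one of α1 in the positive set. DDR1 was 64.1 CPM in α1 replicate 4 beside 40.0 to 43.3, and FGFR1 was 170 CPM in α8 replicate 1 beside 141 to 144. INSR was 1.05 CPM in control replicate 3 beside 0.381 to 0.468. At the lowest counts, EPHB6 was 0.171 CPM in β5 replicate 1 and FLT1 was 0.0411 CPM in α2 replicate 3, with 0 in the other libraries of the line.

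A test of the difference itself set 3 members apart between the isoforms, and 2 of them, INSR and EPHB6, among the 5 clones. Between the means of the Δ133p53β and Δ133p53α clones, the log2 difference was 2.98 for INSR, -2 for EPHA4 and -3.29 for EPHB6, all called by edgeR. This test is over the libraries of 3 against 2 clones, so that isoform and clone cannot be told apart. EPHB6 rested on α1, and EPHA4 did not pass 0.05 among the 5 clones (adjusted p = 0.0721 from edgeR). The range of the fitted means of the 5 clones was 4.41 for INSR and 5.82 for EPHB6 on the log2 scale. The EPHB6 range runs from 178 counts in α1 to 3 in β10, and the counting interval of that ratio was 21.9 to 318.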

How the results depend on the processing

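The counts of called members were recomputed under 79 combinations of comparison and alternative other than leaving out a library, and 62 stayed within 1.5 times. With a mean filter of 1 CPM, which drops EPHB6, PDGFRB and EPHA4, the counts were 2 in α1, 1 between the isoforms, 3 among the 6 lines and 1 among the 5 clones. Without a filter they were 4 in α2 and 4 in α8. Pairwise fits, with fewer libraries, gave 1 in α2 and 2 in β10. With the library set as a term they were 4 in α2, 5 in α8, 5 in β5 and 9 among the 6 lines. A fold change of 1.5 gave 4 in α8, 7 in β5 and 9 among the 6 lines, and DESeq2 gave 8 among the 6 lines and 4 among the 5 clones. Where no construction is named, the cause was not tested.

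Of 212 changes of named members under these alternatives, 6 lost their call, on ERBB3 (5) or PDGFRB (1), and 0 reversed. Leaving out 1 library at a time gave counts of 3 to 6 in α1, 1 to 4 in α2 (1 without control replicate 3, 4 without α2 replicate 1), 2 to 3 in α8, 3 to 4 in β5, 3 to 4 in β10, 3 between the isoforms, 5 to 7 among the 6 lines and 2 to 3 among the 5 clones. Of 600 changes of named members in these fits, 5 lost their call, all ERBB3, and without control replicate 3 its value was -1.01 in α1.

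Libraries share replicate numbers across lines, but the sources do not say that a number marks a shared culture or day. Deviations of same-numbered clone and control libraries correlated from -0.79 to 0.65, with 6 of 20 pairs over 0.1, and 5 of 20 clone libraries correlated best with their own number. The replicate block gave 3 called members in α1, where ERBB3 was at -1.49, 2 in α2, 2 in α8, 3 in β5, 4 in β10, 3 between the isoforms, 5 among the 6 lines and 2 among the 5 clones. At this depth, members of a few counts per library (EPHB6 and EPHA4 outside their high lines, and the 19 untested members) allow only large differences to be seen.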
